A study of Mus musculus with 6 samples.

Results

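The genes described here encode semaphorins, plexins, neuropilins, Eph receptors and ephrins, contact and diffusible cues that guide neurons and the receptors for these cues. They were taken by symbol from the count table: 53 symbols named such a gene, and 46 of them reached at least 1 CPM (a gene's count scaled by its library's total) in at least 2 of 4 libraries. The 46 comprise 18 semaphorins, 9 plexins, 2 neuropilins, 11 Eph receptors and 6 ephrins, of 23306 genes in the table.

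The libraries hold ribosome-bound RNA of parvalbumin neurons, a class of GABA-releasing cortical interneurons that fire at high rates. It was taken from frontal cortex of male C57BL6 mice, for which the labels give no age. All mice carried a parvalbumin-driven Cre and the RiboTag allele (RPL22HA/WT), in which Cre-expressing cells build a haemagglutinin-tagged ribosomal protein by which their ribosomes are pulled down. One group was wild type for Fxr1, whose product binds RNA and is related to the fragile X protein FMRP, and the other carried an Fxr1 conditional knockout, so that the same Cre deletes the gene and tags the ribosomes. Of 3 libraries listed for each genotype, replicates 2 and 3 of wild type and replicates 1 and 3 of the knockout were analysed, with 9696126 to 10301280 counts each. The labels do not say that each library came from its own animal, so p-values here rest on variation among libraries that may be technical.

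Semaphorins are secreted or membrane-bound ligands that signal through plexins, large receptors whose intracellular part regulates small GTPases; most secreted class 3 semaphorins need a neuropilin as the ligand-binding partner. Eph receptors are receptor tyrosine kinases whose ephrin ligands stay attached to the neighbouring cell, A-class ephrins by a lipid anchor and B-class ephrins by a transmembrane stretch, so that both cells can receive a signal. In the mature cortex these families are also known for roles at synapses, and Sema3A is known as a component of the perineuronal nets around parvalbumin neurons.

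Fxr1 fell from 97.7 and 101 CPM in the wild type libraries to 18.0 and 18.5 CPM in the knockout libraries (TMM-scaled CPM, in which library sizes are adjusted for composition), 18.3% of the wild type level. On the log2 scale this is a fold change of −2.45, with a standard error (SE) of 0.10; edgeR's quasi-likelihood test gave an adjusted p of 1.77e-15. Markers of other cell types were present. Summed over lists of marker genes, markers of parvalbumin and GABA neurons stood at 11010 to 11460 CPM in the 4 libraries, excitatory neuron markers at 775.6 to 857.3, astrocyte markers at 503.2 to 595.7, oligodendrocyte markers at 282.3 to 404.4, vascular markers at 10.7 to 23.0 and microglia markers at 13.2 to 15.4. Most of the excitatory sum was Camk2a, at a mean of 698 CPM, and most of the astrocyte sum was Slc1a2, at 472 CPM. No marker of these lists had a count of 0 in any library. The part of other cell types in the guidance values was not tested, and in such bulk libraries fewer cells of a type and less RNA per cell cannot be told apart.

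Some guidance genes of the same family that are neighbours on a chromosome stood at very different levels. The class 3 semaphorin genes Sema3d, Sema3a, Sema3e and Sema3c lie within 5.35 Mb of chromosome 5 (mm10, 12383385 to 17730268). Per kilobase of exon, Sema3e was 37.5 ± 4.56 times the level of Sema3d and 30.1 ± 4.88 times that of Sema3c, but only 3.64 ± 0.434 times that of Sema3a (mean ± SD of the ratio over 4 libraries). With the longest transcript as the length, the last ratio was 2.11 ± 0.251. The ephrin genes Efna1, Efna3 and Efna4 lie within 66.3 kb of chromosome 3 (89271733 to 89338028), and of these Efna3 alone reached the level set for inclusion. Efna4 had 1 count in each wild type library and 0 in each knockout library, and Efna1 had 1 to 4 counts per library. To show what lies in front of such neighbours, the bases upstream of 1 high and 1 low gene of each cluster, and of Sema7a, the most abundant guidance gene per kilobase, are printed 5′ to 3′ on the gene's strand, from RefSeq (GRCm38.p6). Capitals mark GC boxes, the motif GGGCGG on either strand. The bases shown for Efna3 end 26 bases before the RefSeq start, where GENCODE's gene model begins.
Sema7a, chr9:57939862-57940111, plus strand: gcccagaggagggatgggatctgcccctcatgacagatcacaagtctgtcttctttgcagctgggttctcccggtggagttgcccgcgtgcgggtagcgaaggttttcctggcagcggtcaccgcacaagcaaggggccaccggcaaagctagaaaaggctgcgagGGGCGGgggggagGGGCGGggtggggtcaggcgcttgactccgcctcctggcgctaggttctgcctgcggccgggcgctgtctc
Sema3e, chr5:14025026-14025275, plus strand: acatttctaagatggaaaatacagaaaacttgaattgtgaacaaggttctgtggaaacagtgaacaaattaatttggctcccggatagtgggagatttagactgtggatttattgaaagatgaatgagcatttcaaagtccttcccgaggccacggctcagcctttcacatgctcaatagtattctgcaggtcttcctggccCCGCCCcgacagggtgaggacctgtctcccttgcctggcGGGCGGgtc
Sema3d, chr5:12382916-12383165, plus strand: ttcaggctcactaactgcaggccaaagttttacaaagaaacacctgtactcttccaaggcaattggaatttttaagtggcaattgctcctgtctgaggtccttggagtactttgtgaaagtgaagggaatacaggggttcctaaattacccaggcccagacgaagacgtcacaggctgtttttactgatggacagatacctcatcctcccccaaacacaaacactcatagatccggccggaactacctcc
Efna3, chr3:89322966-89323189, minus strand: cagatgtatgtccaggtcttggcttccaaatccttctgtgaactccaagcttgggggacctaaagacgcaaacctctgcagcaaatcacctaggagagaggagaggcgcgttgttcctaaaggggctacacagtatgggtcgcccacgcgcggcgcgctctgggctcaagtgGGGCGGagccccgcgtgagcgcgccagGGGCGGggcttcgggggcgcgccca
Efna4, chr3:89338029-89338278, minus strand: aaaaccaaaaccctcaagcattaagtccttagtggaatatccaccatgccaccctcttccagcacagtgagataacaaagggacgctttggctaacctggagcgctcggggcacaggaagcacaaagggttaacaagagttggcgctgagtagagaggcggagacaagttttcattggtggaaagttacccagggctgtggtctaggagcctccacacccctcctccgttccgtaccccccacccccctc
The sequences of Sema7a, Sema3e and Efna3 held 2 GC boxes each and those of Sema3d and Efna4 none. CpG pairs numbered 7 and 4 in the Sema3e and Sema3d sequences, and 18 and 7 in those of Efna3 and Efna4. The other genes of the chromosome 5 cluster had the opposite order. In the 250 bases before its RefSeq start the low Sema3c held 39 CpG pairs and 3 GC boxes. Sema3a, which stood higher, held 2 CpG pairs and 0 GC boxes. Unlike the printed sequences, these windows lie inside GENCODE's gene models. The Sema3c window begins at 17574566 in a model that starts at 17574281, and that of Sema3a at 13396534 in a model that starts at 13125414. The genes printed were chosen after their levels were seen, and a matching motif is a description of the letters. RefSeq's promoter table matched 41 of the 46 genes with 54 promoters. Of these, 40 (74.1%) held a GC box in the 250 bases before the start, against 32.7% of all 32851 promoters in that table, which include those of predicted genes. Among the 7 promoters of guidance genes under the level rule, 6 held it. The CCAAT box (CCAAT on either strand) was in 31.5% of the members' promoters and 33.8% of all.

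The 46 genes ran from 0.167 CPM per kilobase of exon for Sema3f to 101 for Sema7a. To compare genes of different length, CPM was divided by the length of all annotated exons of the gene, and levels below are means ± SD over the 4 libraries of both genotypes. With the length of the longest transcript in its place, levels of genes with several transcripts were higher, to 0.256 for Sema3f, and some orders turned. Summed per kilobase, semaphorins made up 47.8% ± 0.781 of the guidance transcripts, plexins 28.8% ± 0.413, Eph receptors 19.4% ± 0.802, ephrins 3.64% ± 0.284 and neuropilins 0.361% ± 0.0507. The summed levels of semaphorins, plexins, Eph receptors and ephrins overlapped between the genotypes, as the bar plot of sums by role shows. Semaphorins summed to 195.6 and 211 CPM per kilobase in wild type and 203.4 and 205.4 in knockout, and plexins to 120.2 and 125.7 against 119.1 and 125.3. The neuropilin sum was 1.63 and 1.24 in wild type against 1.65 and 1.64 in knockout. Both knockout values lay above wild type with this length, but the groups overlapped with the longest transcript (3.58 and 2.87 against 3.52 and 3.82) and as CPM (17.6 and 13.2 against 18.1 and 17.3).

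**Figure D1:**
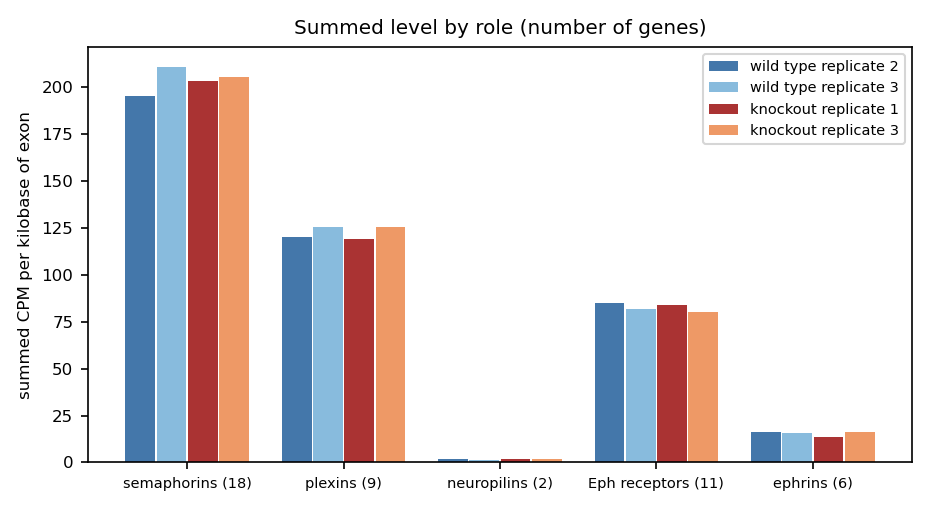
Summed CPM per kilobase of exon (vertical axis) for each role (horizontal axis, number of genes in brackets), with 1 bar per library. Semaphorins stand highest at 195.6 to 211 and neuropilins lowest at 1.24 to 1.65, and the knockout bars overlap the wild type bars in the semaphorins, plexins, Eph receptors and ephrins. The neuropilin bars, 1.63 and 1.24 against 1.65 and 1.64, are apart with this length and overlap with the longest transcript.

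Among the ligands, Sema7a led all guidance genes. It encodes a semaphorin held to the membrane by a lipid anchor, whose known receptors are plexin C1 and integrins. It stood at 93.2 and 106 CPM per kilobase in wild type and 102 and 102 in knockout, higher than 98.0% of the 11685 tested genes with an exon length (chromosome 9, 57940112 to 57962865). Sema6b, a transmembrane semaphorin, followed at 28.5 ± 0.746 CPM per kilobase (chromosome 17, 56123085 to 56140343), and Sema3e, a secreted semaphorin that binds plexin D1 without a neuropilin, at 20.5 ± 1.49 (chromosome 5, 14025276 to 14256689). The ranges of these 3 genes over libraries did not overlap each other, but those of Sema6b and Sema3e did with the longest transcript (29.1 to 30.8 and 26.2 to 30.7). Next came Sema4g at 9.31 ± 0.596, Sema6a at 8.03 ± 0.421 and Sema6d at 7.35 ± 0.344. The range of Sema4g over the libraries lay above those of Sema6a and Sema6d. The ranges of Sema6a and Sema6d overlapped, with Sema6a above Sema6d within each library. With the longest transcript the order was Sema4g at 17.7, Sema3a at 13.4, Sema6d at 12.1 and Sema6a at 10.3. Sema3a, the ligand of the neuropilin 1 and plexin A receptor complex, stood at 5.71 ± 0.892, Sema5a at 4.89 ± 0.770, Sema4f at 4.32 ± 0.355, Sema6c at 4.23 ± 0.134 and Sema4d at 4.01 ± 0.334. The other 7 semaphorins (Sema3c, Sema3d, Sema3f, Sema4a, Sema4b, Sema4c and Sema5b) lay between 0.167 and 2.01 CPM per kilobase.

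**Figure D2:**
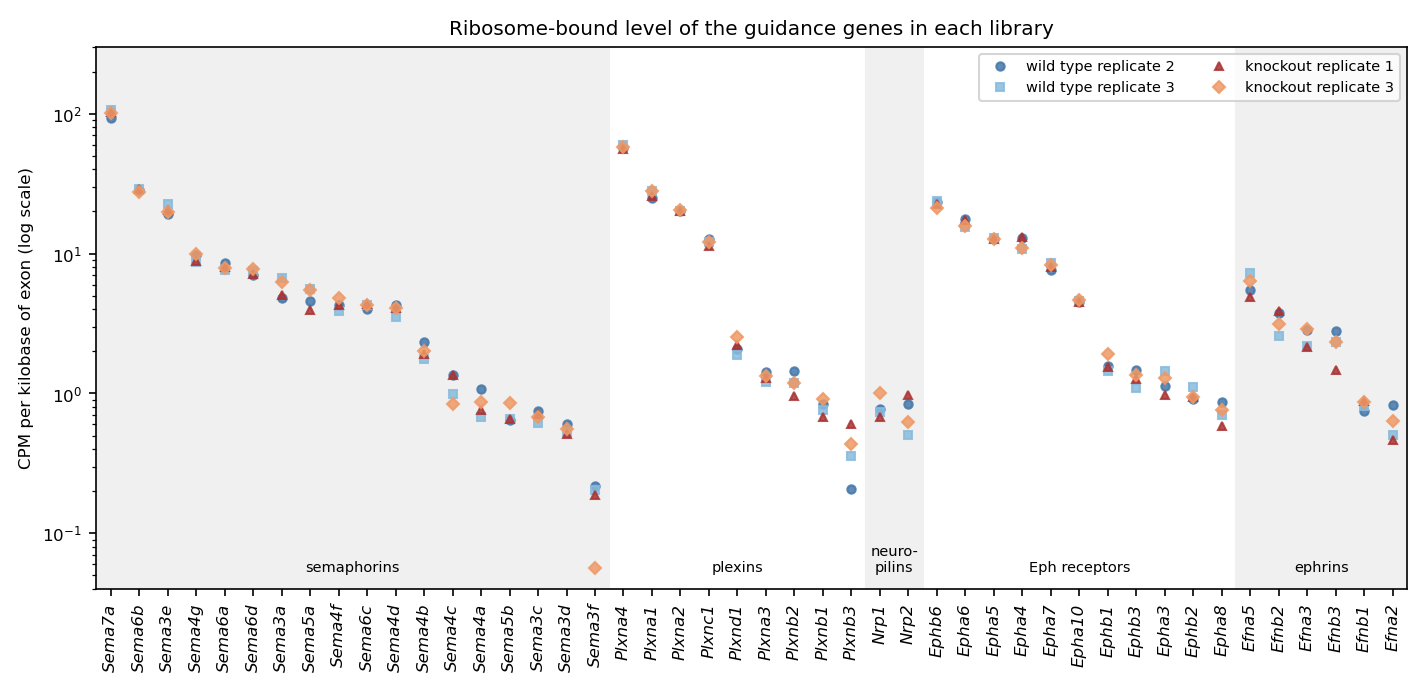
CPM per kilobase of exon on a log scale (vertical axis) for each of the 46 genes, ordered by level within its role, with 1 point per library. Sema7a stands at about 101 and Plxna4 at about 57.6, each gene's 4 points lie close together at high levels, and Sema3f in knockout replicate 3 is the lowest point at 0.0561.

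Plexin transcripts were mostly those of class A. Plxna4, which encodes a receptor for class 3 semaphorins with a neuropilin and for class 6 semaphorins without one, had 7722 to 8695 counts per library and stood at 57.6 ± 1.84 CPM per kilobase, above 95.3% of tested genes (chromosome 6, 32144268 to 32588192). Plxna1 followed at 26.7 ± 1.61 (chromosome 6, 89316314 to 89362620) and Plxna2 at 20.3 ± 0.221 (chromosome 1, 194618218 to 194816869). Their ranges did not overlap, but with the length of the longest transcript in place of all exons their order turned, to 26.8 for Plxna1 and 31.6 for Plxna2. Plxnc1, the receptor of Sema7A, stood at 12.1 ± 0.530. The rest were low: Plxnd1 at 2.17 ± 0.273, Plxna3 at 1.31 ± 0.0917, Plxnb2 at 1.20 ± 0.205, Plxnb1 at 0.797 ± 0.101 and Plxnb3 at 0.401 ± 0.166.

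Both neuropilin transcripts were scarce beside the plexins they pair with. Nrp1 (chromosome 8, 128358604 to 128503363) stood at 0.800 ± 0.149 CPM per kilobase with 67 to 102 counts per library, and Nrp2 (chromosome 1, 62703285 to 62818695) at 0.737 ± 0.210 with 62 to 117 counts. These 2 levels overlapped. With the longest transcript they stood at 2.15 for Nrp1 and 1.30 for Nrp2 and did not overlap, at 1.81 to 2.72 and 0.895 to 1.71. The summed level of the plexin A genes was 62.8 to 87.98 times that of the neuropilins in the 4 libraries, and 32.8 to 44.1 times with the longest transcript. Set beside their receptors, Sema7a was 8.36 ± 0.711 times the level of Plxnc1, Sema3e 9.61 ± 1.79 times that of Plxnd1, Sema3a 7.25 ± 1.35 times that of Nrp1 and Sema4d 5.09 ± 0.712 times that of Plxnb1 (7.86 ± 1.10 with the longest transcript). Sema3f, the ligand of neuropilin 2, went the other way, at 0.237 ± 0.131 of Nrp2.

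Eph receptor transcripts exceeded ephrin transcripts by 4.92 to 6.08 times per kilobase in each library, and by 6.405 to 7.569 times with the longest transcript. Ephb6, which encodes a receptor without kinase activity, led at 22.8 ± 1.04 CPM per kilobase (chromosome 6, 41605482 to 41620509). Epha6 followed at 16.6 ± 1.12 (chromosome 16, 59653483 to 60605531) and Epha5 at 12.7 ± 0.0786 (chromosome 5, 84054761 to 84417382). With the longest transcript as the length, Epha5 became the first at 29.1, ahead of Ephb6 at 22.8 and Epha6 at 22.3, which then overlapped. Epha4, whose protein binds ephrins of both classes, stood at 12.0 ± 1.31 and overlapped Epha5. Epha7 stood at 8.12 ± 0.355 and Epha10, a further receptor without kinase activity, at 4.57 ± 0.0879. The other B-class receptors, Ephb1, Ephb2 and Ephb3, lay between 0.979 and 1.62, and Epha3 and Epha8 at 1.21 ± 0.2001 and 0.731 ± 0.122. A-class receptors together were 1.99 to 2.16 times the B-class receptors, and 13.0 to 15.3 times without Ephb6. With the longest transcript these ratios were 3.0 to 3.202 and 14.79 to 17.37.

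Ephrin ligands were led by Efna5 at 5.997 ± 1.04 CPM per kilobase (chromosome 17, 62604184 to 62881317). Efnb2 stood at 3.34 ± 0.604 (chromosome 8, 8617434 to 8661242), Efna3 at 2.51 ± 0.399 (chromosome 3, 89313899 to 89322965) and Efnb3 at 2.24 ± 0.556, and the ranges of these 3 overlapped. With the longest transcript Efnb2 stood at 4.77 and its range of 3.69 to 5.58 met that of Efna5 instead. Efnb1 at 0.830 ± 0.0627 and Efna2 at 0.606 ± 0.163 were the lowest. Below the level set for inclusion were Sema3b, Sema3g, Epha1, Epha2, Ephb4, Efna1 and Efna4, with 0 to 9 counts per library. The member nearest the level rule was Sema3f, with 1.13 and 1.07 CPM in wild type and 0.984 and 0.292 in knockout, and the nearest outside was Ephb4, with 0.928 and 0.291 against 0.590 and 0.875.

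The comparison of genotypes asked whether ribosome-bound guidance transcripts differed in the knockout. None of the 46 genes passed edgeR's test at an adjusted p of 0.05 over all 12449 tested genes, of which 0.0321% were called (4 genes, 0.0161% higher and 0.0161% lower in knockout). The adjusted p of every guidance gene was 0.998 or more by edgeR. DESeq2's Wald test and limma voom called 0 of the 46 as well, against 0.0111% and 0.0241% of all genes tested by each. By edgeR 22 of the 46 were higher and 24 lower in knockout, with a median log2 fold change of −0.0034, beside −0.0015 over all tested genes. At an unadjusted p under 0.05 there was 1 guidance gene, Plxnb3, where 3.23% of all tested genes had such a p. This count moved in some fits without a single library. The spread then comes from the other genotype alone, so those counts are not given. By limma voom 1 had such a p (3.08% of all) and by DESeq2 0 (0.465% of all). For 10 of the 46 the libraries of the genotypes did not overlap, 5 higher and 5 lower in knockout, against 30.1% of all tested genes (14.9% higher and 15.2% lower). With library totals in place of TMM scaling this count was 7. Among the 5 lower genes was Sema3f, which met the level rule through its wild type libraries alone. Its direction is thus tied to its inclusion. For any single gene, 0.333 is the smallest two-sided p that an exact permutation of 2 against 2 libraries allows.

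How small a difference could be bounded depended in part on the level. Of the 23 genes at 20 CPM or more, 16 had a 95% interval of the log2 fold change within 0.3 of 0 on either side, a fold of 1.23, and the estimates of all 23 lay within 0.172 of 0. The interval was −0.17 to 0.11 for Plxna4, −0.12 to 0.19 for Sema7a, −0.12 to 0.16 for Plxna2 and −0.16 to 0.14 for Epha5. It was −0.13 to 0.18 for Plxna1, −0.20 to 0.14 for Sema6b, −0.24 to 0.10 for Sema3e and −0.19 to 0.18 for Epha6. For these 8 abundant genes the intervals thus lay between −0.24 and 0.19, and changes within each gene's interval are not excluded. Other abundant genes were bounded less closely. The interval was −0.57 to 0.38 for Sema5a, at a mean of 91.4 CPM, and −0.51 to 0.46 for Sema3a, at 79.2 CPM. Over all 23 genes the lowest bound was −0.572 and the highest 0.514. The intervals are not adjusted for the number of genes. They do not give the smallest change that would pass after adjustment over all tested genes. For scarce genes the intervals were wide. They reached from −0.28 to 0.60 for Nrp1, from −0.32 to 0.81 for Nrp2 and from −1.24 to 0.74 for Efna2.

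**Figure D3:**
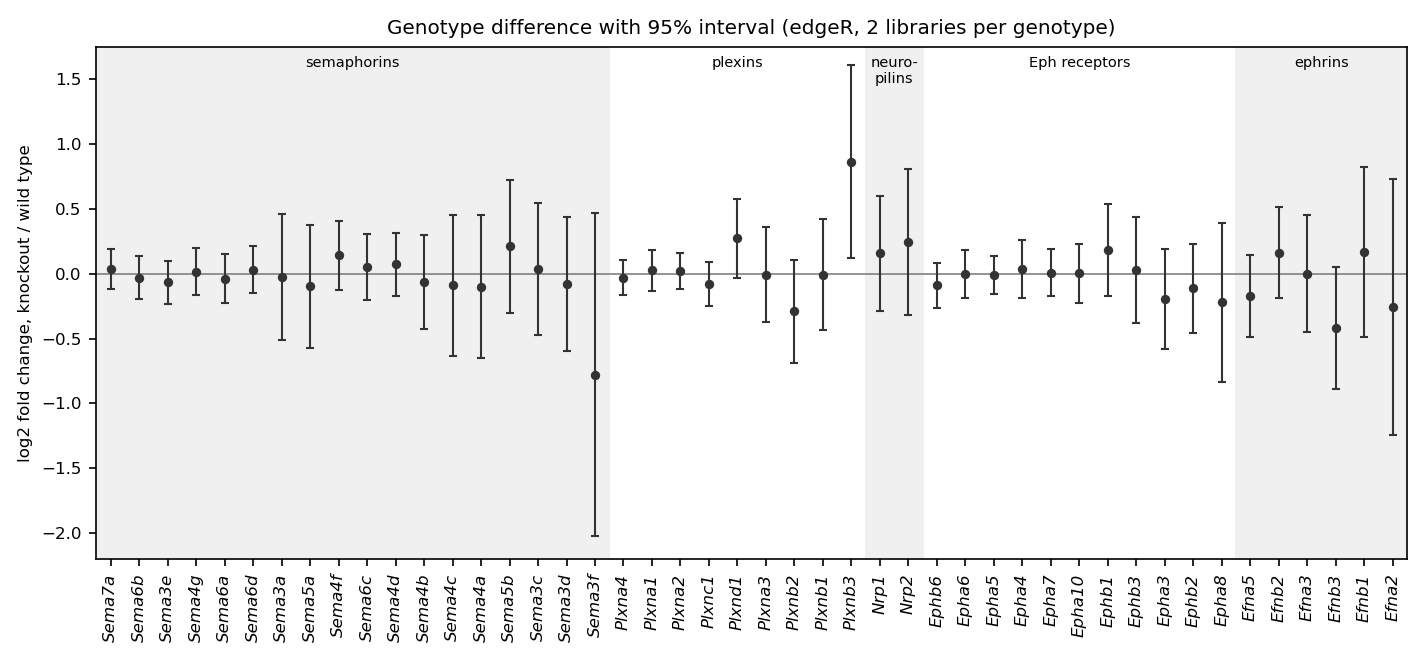
Log2 fold change of knockout over wild type with its 95% interval (vertical axis) for each of the 46 genes, ordered by level within its role. Points of abundant genes lie near 0, most with short intervals, but those of Sema5a (−0.57 to 0.38) and Sema3a (−0.51 to 0.46) are wide. Of all 46 intervals only that of Plxnb3, 0.12 to 1.61, does not hold 0.

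The plexins with the smallest p-values were all scarce. Plxnb3 (chromosome X, 73757090 to 73772514) encodes a B-class plexin that in the brain is known chiefly from oligodendrocytes. It had 13 and 24 counts in wild type against 40 and 29 in knockout, or 1.33 and 2.34 against 3.97 and 2.79 TMM-scaled CPM. Both knockout libraries lay above both wild type libraries. The log2 fold change was 0.87 (SE 0.36, unadjusted p = 0.024 and adjusted p = 0.998 by edgeR). Leaving out replicate 2 of the wild type gave 0.53, and leaving out its replicate 3 gave 1.33. Oligodendrocyte markers were higher in knockout in 8 of 9 genes, with 0 called, and summed to 312.3 and 282.3 CPM in wild type and 287.4 and 404.4 in knockout. Plxnb3 was highest in knockout replicate 1, where that sum was 287.4. The part of oligodendrocyte RNA in the Plxnb3 values was not tested.

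Plxnd1 (chromosome 6, 115954811 to 115995005), the receptor of Sema3E, measured 14.96 and 13.8 TMM-scaled CPM in wild type against 16.5 and 18.2 in knockout. Its groups did not overlap, and the log2 fold change of 0.27 (SE 0.15) did not pass (unadjusted p = 0.078 by edgeR). A subset of striatal projection neurons is known to express this receptor, and the marker list used here was not drawn up for that subset. Of the 6 listed markers of striatal projection neurons 5 were higher in knockout, with 0 called. By edgeR 4 had an unadjusted p under 0.05, against 3.23% of all tested genes. Drd1a alone was lower, at 23.7 and 29.0 TMM-scaled CPM against 18.1 and 26.3 in knockout, with overlapping groups. Its log2 fold change was −0.25 (SE 0.16). Together the 6 markers summed to 76.0 and 79.9 CPM in wild type against 80.1 and 88.5 in knockout. What part striatal RNA had in the Plxnd1 values was not tested. The ligand gene Sema3e measured 178 and 212 TMM-scaled CPM in wild type and 191 and 182 in knockout, and both knockout values lay between those of wild type. Plxnb2 (chromosome 15, 89155549 to 89180788), a receptor of class 4 semaphorins, measured 11.2 and 9.18 against 7.45 and 9.16, with a log2 fold change of −0.29 (SE 0.19), and knockout replicate 3 lay just under wild type replicate 3. Without wild type replicate 2 or knockout replicate 1 the Plxnb2 value was −0.14 or −0.15, and without knockout replicate 3 it was −0.45.

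**Figure D4:**
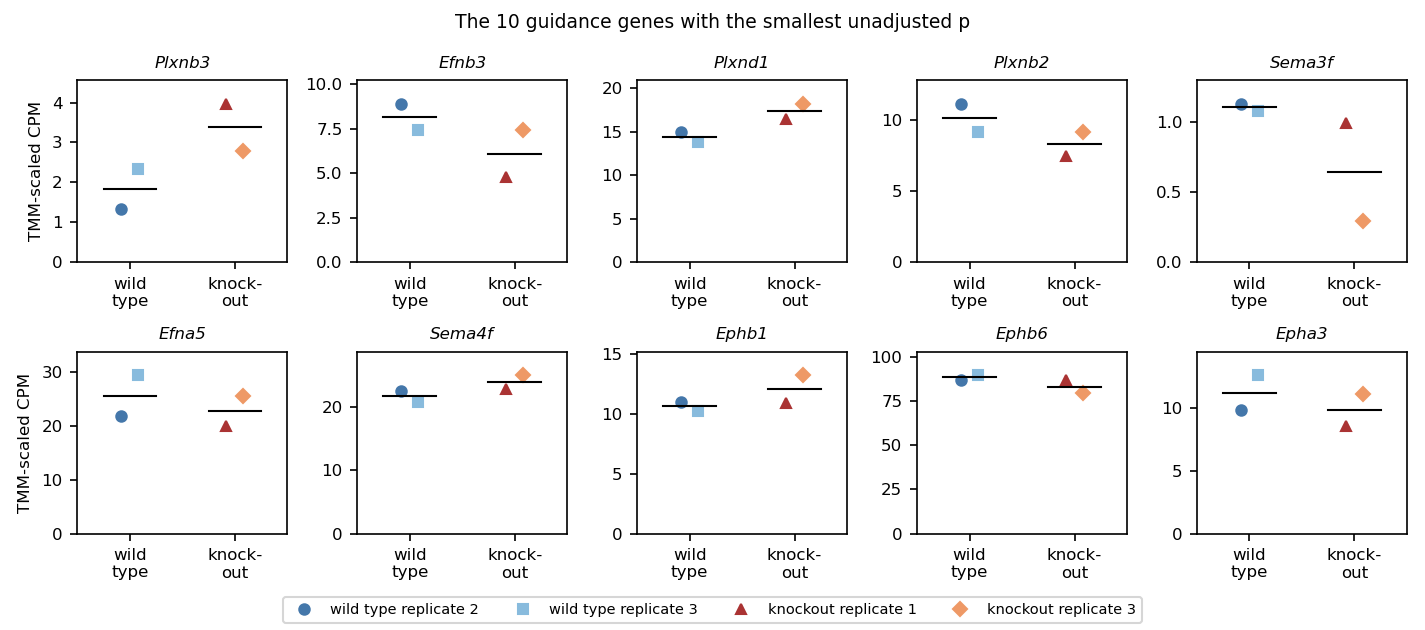
TMM-scaled CPM (vertical axis, from 0) in each library for the 10 guidance genes with the smallest unadjusted p, with the mean of each genotype as a bar. Plxnb3 is higher in both knockout libraries at 2.79 and 3.97, while for Efnb3 and Plxnb2 knockout replicate 3 sits at the level of wild type replicate 3.

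Of the ephrins, Efnb3 (chromosome 11, 69554092 to 69560205), whose protein is known as a midline barrier to crossing axons, measured 8.91 and 7.42 TMM-scaled CPM in wild type against 4.76 and 7.42 in knockout. Its groups were barely apart, since the values of replicates 3 were 7.4214 in wild type and 7.4208 in knockout. Its log2 fold change of −0.42 (SE 0.23) did not pass (unadjusted p = 0.078 by edgeR), and it was −0.14 without knockout replicate 1 and −0.77 without knockout replicate 3. Efna5, which guides axons by repulsion through A-class receptors, measured 21.8 and 29.4 in wild type and 19.95 and 25.5 in knockout, with overlapping groups and a log2 fold change of −0.17 (SE 0.15).

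Among the semaphorins, Sema3f (chromosome 9, 107681500 to 107710475) had 11 counts in each wild type library against 10 and 3 in knockout, too few for its log2 fold change of −0.78 (SE 0.61) to be told from 0. It was −0.15 without knockout replicate 3 and −1.88 without knockout replicate 1. Sema3f met the level rule through its wild type libraries alone, so its lower level in knockout is tied to its inclusion. Sema4f (chromosome 6, 82911885 to 82939769), a transmembrane semaphorin, measured 22.6 and 20.8 TMM-scaled CPM in wild type and 22.9 and 25.1 in knockout, a log2 fold change of 0.14 (SE 0.13).

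Among the Eph receptors, the abundant Ephb6 measured 87.3 and 89.8 TMM-scaled CPM in wild type and 86.9 and 79.7 in knockout, both knockout values lower, with a log2 fold change of −0.09 (SE 0.09). Ephb1 (chromosome 9, 101922128 to 102354693) measured 10.96 and 10.3 against 10.9 and 13.2 and Epha3 (chromosome 16, 63543534 to 63864175) 9.84 and 12.6 against 8.54 and 11.1. Both overlapped between the genotypes, at log2 fold changes of 0.19 (SE 0.17) and −0.19 (SE 0.19). None of these 3 receptors passed.

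Libraries of the same genotype differed from each other in several guidance genes. The median absolute log2 difference of the 46 genes was 0.201 between the wild type libraries and 0.127 between the knockout libraries, beside 0.13 and 0.141 over all tested genes. The median absolute log2 fold change of the 46 between genotypes, each a mean of 2 libraries and so less variable, was 0.0755, beside 0.0872 over all tested genes. Sema3a measured 66.8 TMM-scaled CPM in wild type replicate 2 and 92.8 in replicate 3, beside 70.8 in knockout replicate 1 and 86.4 in replicate 3. Sema5a measured 84.6 and 104 in the wild type libraries and 74.7 and 102 in the knockout libraries. In each genotype 1 library was thus high and the other low for both of these semaphorin genes. The opposite order held for Nrp2, at 9.94 and 6.05 in wild type and 11.6 and 7.32 in knockout. Efnb2 showed it too, at 25.4 and 17.8 against 27.0 and 21.3, and so did Epha4, at 104 and 86.7 against 108 and 88.1. These genes were chosen after their values were seen, and replicate numbers pair no libraries. Of the 46 genes, 10 were higher and 9 lower in replicate 3 of both genotypes, and 27 differed in direction. Among the marker lists, that of other interneurons summed to 186.5 and 197.2 CPM in wild type (replicate 2 first) and to 162.9 and 202.0 in knockout (replicate 1 first). Its member Npy measured 19.2 and 32.4 TMM-scaled CPM in wild type and 14.9 and 38.9 in knockout. Its part in the guidance values was not tested.

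**Figure D5:**
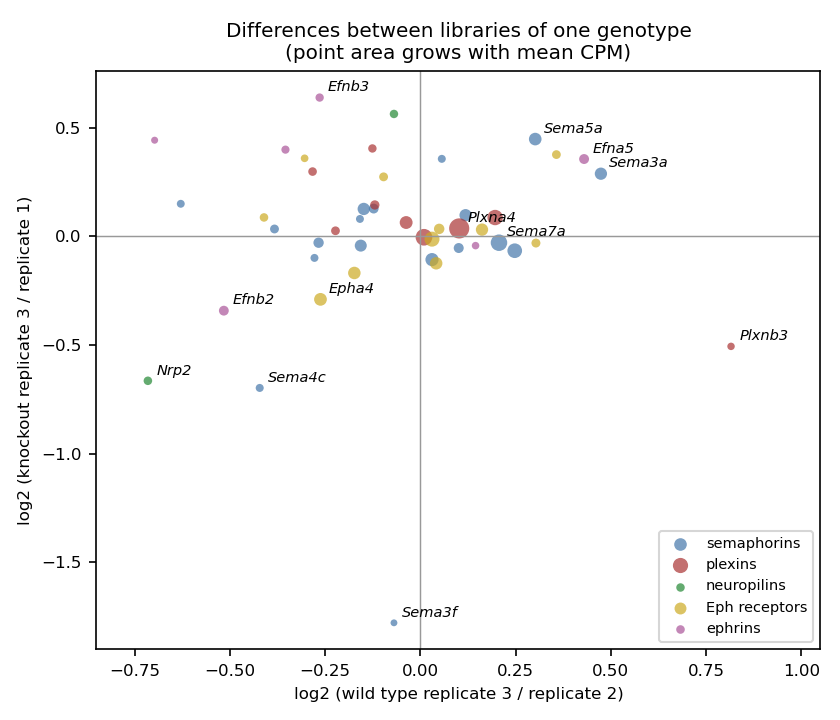
Log2 ratio of wild type replicate 3 to replicate 2 (horizontal axis) against that of knockout replicate 3 to replicate 1 (vertical axis), 1 point per guidance gene, with larger points for higher CPM. Sema3a and Sema5a lie to the upper right, Nrp2 and Efnb2 to the lower left, and Plxna4 and Sema7a near the centre.

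Genes that act with these ligands and receptors were taken from lists. Of 7 tested co-receptor genes, 1 passed and was higher in knockout, where 0.0321% of all tested genes were called. The lists were chosen with earlier results of these data known, so this count is not an independent result about co-receptors. The gene was Chl1, a cell adhesion gene of the L1 family whose protein can serve as a partner of neuropilin 1 in Sema3A signalling. It measured 93.3 and 86.9 TMM-scaled CPM in wild type and 136 and 171 in knockout, with a log2 fold change of 0.77 (SE 0.10) and an adjusted p of 0.00134 by edgeR. With library totals in place of TMM scaling edgeR's adjusted p was 0.0563 and did not pass, while Chl1 passed by DESeq2, by limma voom and without each single library. The log2 fold change of L1cam, whose protein is a neuropilin partner, was −0.04 (SE 0.08), and that of Met, a receptor tyrosine kinase that can associate with B-class plexins, was −0.67 (SE 0.43) at 1.58 CPM. Neither passed. Of 28 tested genes of semaphorin and plexin signalling 0 passed, with 16 higher and 12 lower in knockout. Rras2 alone (log2 fold change 0.47, SE 0.22) had an unadjusted p under 0.05 by edgeR, against 3.23% of all tested genes. Rnd1, a small GTPase that binds plexins, had −0.62 (SE 0.32), and Mical1, an oxidoreductase downstream of plexins, 0.57 (SE 0.32). Of 28 tested genes of Eph and ephrin signalling 0 passed, with 18 higher and 10 lower. Again 1 had an unadjusted p under 0.05 by edgeR, against 3.23% of all tested genes. This was Chn2, which encodes the Rac-inactivating protein beta-chimaerin, at 29.4 and 33.2 TMM-scaled CPM in wild type and 24.3 and 25.9 in knockout (log2 fold change −0.32 and SE 0.12). The adaptor gene Crk had 0.16 (SE 0.08) and the tyrosine kinase gene Abl2 0.17 (SE 0.09). The median log2 fold change was −0.04 for co-receptors, 0.02 for semaphorin and plexin signalling and 0.04 for Eph and ephrin signalling.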

How the data were processed

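The authors deposited a table of whole-number counts by gene symbol, not normalized. The submitters' processing notes name STAR and mm10, with version, counter, annotation and strand setting not given in the sources used here, and reads of overlapping or antisense genes may be shared. RNA from the ribosome pull-down was sequenced with a stranded total RNA kit, per the labels' protocols. A column was used where its name matched a single sample's title; 2 columns with the same title (that of wild type replicate 1) were left out. Replicate numbers follow accession order.

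The deposited counts were tested with edgeR 4.0.16 in R 4.3.3 (TMM, filterByExpr, which kept all 46 guidance genes among 12449, and robust quasi-likelihood fits), with Benjamini-Hochberg adjustment over all tested genes and a threshold of 0.05. The SE is the absolute log2 fold change over the square root of F, and the 95% intervals use it with the test's degrees of freedom. The fit was checked on simulated data. Exon lengths and coordinates are from GENCODE M21 (mm10) by symbol, which gave all 46 a length. Levels use library totals and differences TMM-scaled CPM. Named were Fxr1, guidance genes past the threshold, the 10 with the smallest p, the 3 highest of each role, and of each other list genes past the threshold and the 3 with the smallest p. Other genes are named for their level, as markers, or because their values drew attention. Members and lists were chosen with earlier results of these data known. Alternatives were DESeq2 1.42.0, limma 3.58.1 voom, other scalings, filters, lengths and thresholds, and leaving out each library.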

Additional observations from a re-analysis of the deposited data

How the results depend on the processing

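The number of guidance genes past the threshold was 0 under all 12 alternatives run for it, and 47 or 38 genes met the level rule at 0.5 or 5 CPM in place of 46. Over all genes the count of 4 became 2 by DESeq2, 1 with library totals and 13 without a count filter, and 9 to 48 without single libraries, where the spread comes from the other genotype alone. The median log2 fold change of the guidance genes ranged from −0.0346 to 0.0338 without single libraries. With the longest transcript as the length, the shares were 22.2% for Eph receptors, 3.25% for ephrins, 0.656% for neuropilins, 27.0% for plexins and 47.0% for semaphorins. With no division by length, plexins led at 45.2%, with semaphorins at 33.6%, ephrins at 1.88% and neuropilins at 0.484%.

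Fxr1 ranged from −2.47 to −2.42 (log2) without single libraries. The sign of small log2 fold changes turned without single libraries, over ranges of −0.365 to 0.0613 for Efna5, −0.0876 to 0.0908 for Epha6, −0.02 to 0.00799 for Epha5, −0.0739 to 0.444 for Efnb2, −0.214 to 0.188 for Efna3, −0.154 to 0.409 for Nrp1 and −0.122 to 0.645 for Nrp2. The ranges were −0.077 to 0.0223 for Plxna4, −0.0651 to 0.128 for Plxna1, −0.0609 to 0.143 for Sema7a, −0.0845 to 0.0233 for Sema6b, −0.182 to 0.0633 for Sema3e and −0.154 to 0.0901 for L1cam. Among genes with the smallest p that kept their sign, the ranges were 0.528 to 1.33 for Plxnb3, −0.774 to −0.137 for Efnb3, 0.199 to 0.343 for Plxnd1, −0.447 to −0.141 for Plxnb2, −1.88 to −0.146 for Sema3f, 0.0793 to 0.209 for Sema4f, 0.0428 to 0.316 for Ephb1, −0.153 to −0.0277 for Ephb6 and −0.395 to −0.00183 for Epha3. Epha6 turned by DESeq2 as well (0.000825). Efna3, at 0.0000606, turned by DESeq2 (−0.000818), with library totals (−0.000587), by limma voom (−0.00041), with no filter (−0.000198) and at 5 CPM in 3 libraries (−0.000808). The cause was not tested. At these totals, genes of a few CPM have intervals too wide to show changes of moderate size. No paired analysis was possible because accession order alone numbers the replicates.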

Other observations

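Other guidance families were measured in the same libraries. Slit2, a secreted ligand of Robo receptors, had a mean level of 9.43 CPM per kilobase of exon over the 4 libraries, and the receptor genes Robo2 and Robo1 had 18.2 and 14.2. The netrin gene Ntn1 was scarce at 0.154 CPM per kilobase, while Ntn4 stood at 9.42 and the netrin receptor genes Unc5a and Dcc at 11.3 and 2.32. Of 24 tested genes of these families 0 passed by edgeR, with 11 higher and 13 lower in knockout. By edgeR 2 had an unadjusted p under 0.05, against 3.23% of all tested genes. These were Slit3 and Slit1, both lower in knockout. Slit3 measured 48.2 and 48.2 TMM-scaled CPM in wild type and 36.7 and 41.1 in knockout (−0.31 on the log2 scale, SE 0.10, with an adjusted p of 0.998 by edgeR). Slit1 measured 51.1 and 56.8 against 39.9 and 50.2 (−0.26, SE 0.11). The values for Slit2 and for the adhesion gene Dscaml1 were −0.09 (SE 0.07) and −0.13 (SE 0.08).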
